A study of Mus musculus with 49 samples.

Results

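The 8 genes described here are early response genes that act as brakes or as short-lived regulators: Dusp1, Zfp36, Btg2, Ier2, Ier3, Klf2, Klf4 and Klf6. They were picked by name, with earlier results of these data known, out of 18193 genes with a single-gene probe set on the array. Each is represented by its single-gene probe set of highest mean signal. All 8 were among the 14624 genes that passed a filter on low signal. On each of the 49 arrays they lay between the 75.5th percentile (Klf2, its lowest array) and the 97.6th percentile (Dusp1, its highest array) of the genes. The chosen probe sets of all 8 thus had a high signal. Other probe sets of Btg2, Klf4 and Klf6 gave different calls in some comparisons, as given below.

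The study gave female C57Bl/J mice arsenate, an inorganic arsenic salt, in drinking water and measured RNA of the urinary bladder, 1 mouse per Affymetrix Mouse430_2 array with no pooling. The doses were 0 (plain water), 0.5, 2, 10 and 50 ppm, each given for 1 week (mice aged 76 days at harvest) or 12 weeks (155 days). Each of the 10 groups held 5 mice, except 0.5 ppm for 1 week with 4. The label of each mouse starts with a number common to its whole group, and what that number stands for is not said, so it cannot be told apart from the dose.

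Early response genes are switched on within minutes of a growth factor, stretch or stress signal, largely through MAP kinases and the transcription factors they act on. Several of their products then end the response. DUSP1 removes phosphate from MAP kinases, ZFP36 (tristetraprolin) binds AU-rich messages and brings in the CCR4-NOT deadenylase that shortens their tails, and BTG2 works with the same deadenylase. IER2 and IER3 are small nuclear and stress-linked proteins, and KLF2, KLF4 and KLF6 are zinc-finger transcription factors that bind GC-rich DNA. KLF2 is known for its role in endothelium and in resting lymphocytes, and KLF4 for its role in epithelium.

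The promoters of 4 of these genes are shown. For 3 of them (Dusp1, Zfp36, Klf2) the fall over doses at 12 weeks passed the test given below. The fourth, Btg2, shares an element with Dusp1, and its chosen probe set did not pass that test. A second Btg2 probe set of lower signal did pass it, so Btg2 is no clear contrast to the other 3. Each line is the RefSeq sequence (GRCm38.p6) of the 250 bases before the start site, 5′ to 3′ along the gene. Capitals mark matches to a cAMP response element (TGACGTCA) or its half-site (TGACG), to the binding site of EGR factors (GCGGGGGCG), to a CArG box, the site of serum response factor, or to a MEF2 site. The windows are chr17:26508473-26508722 (minus strand) for Dusp1, chr7:28379229-28379478 (minus strand) for Zfp36, chr1:134079156-134079405 (minus strand) for Btg2 and chr8:72318812-72319061 (plus strand) for Klf2.
Dusp1: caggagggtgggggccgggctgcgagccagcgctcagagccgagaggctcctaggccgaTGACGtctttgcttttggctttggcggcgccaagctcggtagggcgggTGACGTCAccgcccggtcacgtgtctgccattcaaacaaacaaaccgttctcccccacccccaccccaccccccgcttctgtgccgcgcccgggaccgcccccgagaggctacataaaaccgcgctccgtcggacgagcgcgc
Zfp36: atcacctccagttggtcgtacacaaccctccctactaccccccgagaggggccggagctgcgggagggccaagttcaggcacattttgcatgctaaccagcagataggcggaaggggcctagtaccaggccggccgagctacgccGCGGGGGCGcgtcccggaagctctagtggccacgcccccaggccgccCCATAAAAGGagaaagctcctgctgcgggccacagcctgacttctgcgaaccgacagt
Btg2: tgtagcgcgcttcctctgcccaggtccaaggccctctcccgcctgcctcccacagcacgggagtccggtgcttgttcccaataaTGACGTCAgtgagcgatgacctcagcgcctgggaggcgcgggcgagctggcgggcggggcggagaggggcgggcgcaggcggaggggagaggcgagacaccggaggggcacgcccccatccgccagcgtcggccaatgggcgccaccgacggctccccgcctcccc
Klf2: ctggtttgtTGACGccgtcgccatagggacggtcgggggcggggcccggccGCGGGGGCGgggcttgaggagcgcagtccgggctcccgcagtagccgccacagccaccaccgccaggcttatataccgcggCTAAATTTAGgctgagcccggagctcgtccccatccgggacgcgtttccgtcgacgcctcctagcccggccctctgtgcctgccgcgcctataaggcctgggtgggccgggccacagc

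Motifs were searched on both strands of windows of 300 bases, 250 before to 50 after the start, which matched 7 of the 8 genes, all but Ier2. The full cAMP response element was found in Dusp1, at -143 to -136 from the start, and in Btg2, at -166 to -159, and in 1.79% of all 32851 windows of this length. Its half-site, which the full element contains, was also in Klf2 and Klf4 and in 20.8% of all windows. An EGR site lay in Zfp36, Klf2 and Klf4 (2.91% of all windows). Zfp36 held a CArG box (1.63% of all windows) and Klf2 a MEF2 site (3.19%). A GC box (GGGCGG), the short site shared by SP and KLF proteins, was in all 7 windows against 35.7% of all windows, and can overlap the EGR site. The AP-1 site (TGANTCA, in 7.81% of all windows) and the TATAAA sequence (13.6%) were in none of the 7. The GC content of the 7 windows ran from 54% (Ier3) to 74.3% (Klf4), beside a median of 52.7% over all windows. The shares of all windows were not matched for GC content, which bears on GC-rich and AT-rich sites alike. These matches describe letters in a window and not binding.

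The clearest result was at 12 weeks: 4 of the 8 genes (Dusp1, Klf2, Ier2 and Zfp36) fell at 50 ppm against water, and each of these 4 had all 5 treated mice below all 5 water mice. The other 4 (Btg2, Ier3, Klf4, Klf6) did not pass the test. A gene is called when limma's adjusted p, over all 14624 genes, is under 0.05. At that threshold 1.77% of all genes were called lower in this comparison, and 2.84% had all treated arrays below all water arrays. The 8 genes were chosen with earlier results of these data known, so these shares describe the set and do not test it. The median change of the 8 genes was -0.48 on the log2 scale, beside -0.04 over all genes tested. Signals are given throughout as log2(signal + 16), so a difference of 1 is a doubling of signal plus offset. In whole bladder, less RNA per cell and fewer cells of a type cannot be told apart.

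**Figure D1:**
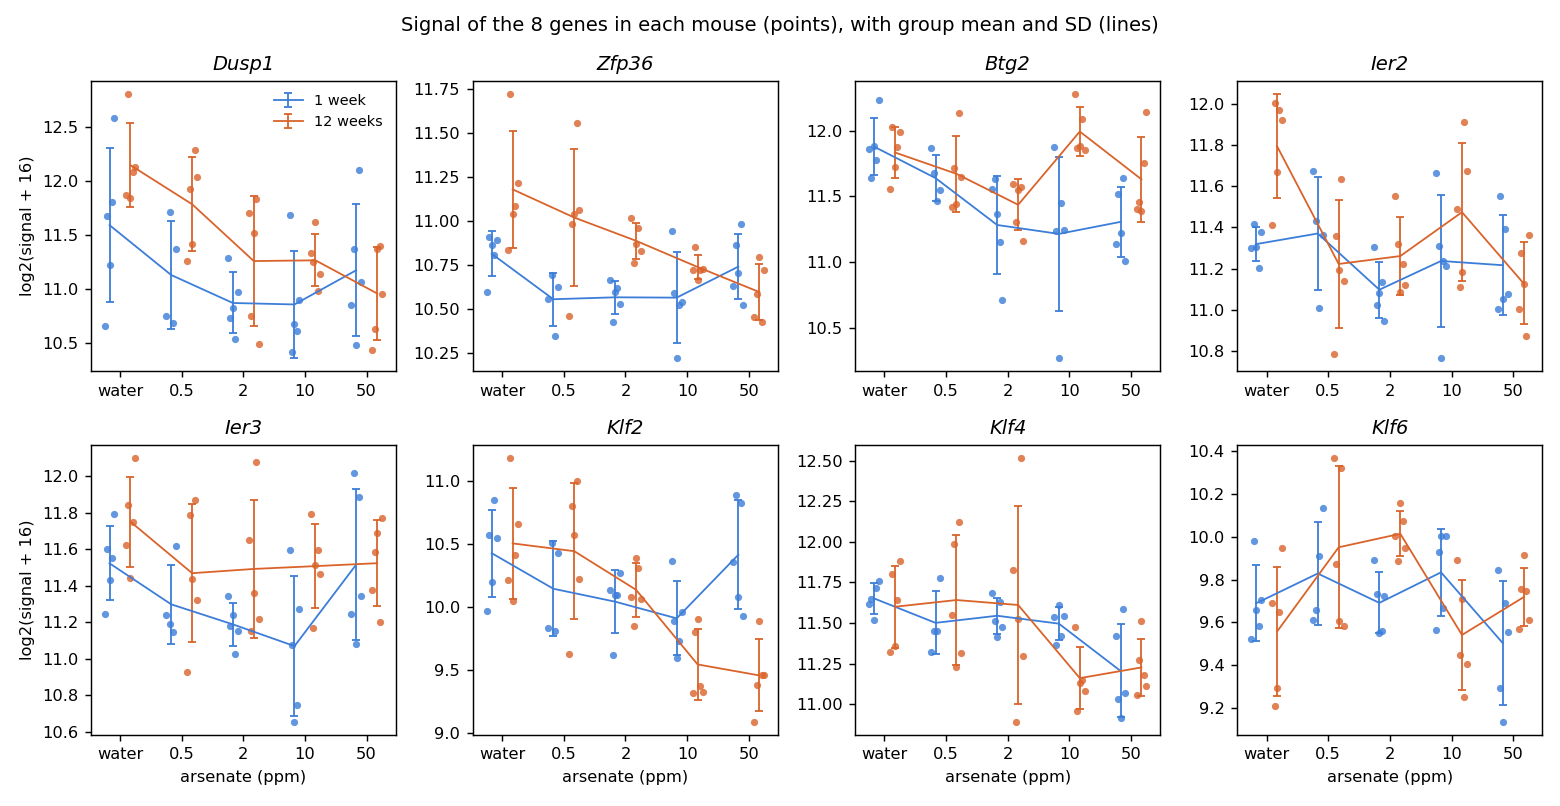
Log2(signal + 16) of each gene (y axis, own range per panel) by arsenate dose in ppm (x axis) at 1 week (blue) and 12 weeks (orange); points are single mice, lines join group means and bars are SD. At 12 weeks the means of Dusp1, Zfp36 and Klf2 are highest in water and lowest at 50 ppm, while Btg2 is highest at 10 ppm and Klf6 at 2 ppm.

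Dusp1 (probe set 1448830_at) showed the largest fall of the 8 genes. Its log2 signal was 11.87, 12.80, 11.84, 12.09 and 12.13 in the 12-week water mice and 10.44, 10.63, 11.37, 11.40 and 10.96 at 50 ppm. The groups do not overlap, and the highest value is water replicate 2. Dusp1 fell by 1.19 ± 0.24 (SE), to 0.439 of the water level (adjusted p = 0.0161, limma). At 10 ppm the values were 11.34, 11.25, 11.62, 10.98 and 11.14, again all below water, as in 1.69% of all genes, but the change of -0.88 ± 0.24 was not called (adjusted p = 0.0846). At 2 ppm the mice spread widely, at 11.70, 10.75, 11.52, 11.84 and 10.49, all still below water by a narrow margin (1.15% of all genes), with a change of -0.89 ± 0.24 (adjusted p = 0.427). The 0.5 ppm group overlapped water (change -0.36 ± 0.24, adjusted p = 0.421). Over dose ranks, with water as the lowest, Dusp1 fell by 0.29 ± 0.05 per dose step (adjusted p = 0.00505). Its 1-week means were 11.59 ± 0.72 in water (SD, n = 5), 11.13 ± 0.50 at 0.5 ppm (n = 4), 10.87 ± 0.28 at 2 ppm, 10.86 ± 0.50 at 10 ppm and 11.17 ± 0.61 at 50 ppm.

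Zfp36 (1452519_a_at), the mRNA decay factor, also fell at 50 ppm. Its values were 10.84, 11.72, 11.04, 11.09 and 11.22 in 12-week water and 10.45, 10.59, 10.79, 10.43 and 10.72 at 50 ppm. The lowest water mouse thus lay just above the highest treated one. The fall was 0.58 ± 0.14, to 0.668 of water (adjusted p = 0.0283, limma). Group means stepped down with every dose, from 11.18 ± 0.33 (SD, n = 5) in water through 11.02 ± 0.39, 10.89 ± 0.10 and 10.74 ± 0.07 to 10.60 ± 0.16 at 50 ppm. The trend was -0.14 ± 0.03 per dose step (adjusted p = 0.0104), and it was called without the water mice too (-0.14 ± 0.04, adjusted p = 0.0463). At 1 week the means were 10.81 ± 0.13 in water, between 10.56 and 10.57 at 0.5, 2 and 10 ppm, and 10.74 ± 0.19 at 50 ppm.

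Btg2 (1416250_at), an antiproliferative partner of the deadenylase, was not called in any comparison. Its 12-week means were 11.84 ± 0.19 in water, 11.67 ± 0.29 at 0.5 ppm, 11.44 ± 0.19 at 2 ppm, 11.99 ± 0.19 at 10 ppm and 11.63 ± 0.32 at 50 ppm (SD, n = 5). The order of doses differed from that of Zfp36, with the 10 ppm mice at the top. Its largest changes were at 1 week, -0.67 ± 0.20 at 10 ppm (adjusted p = 0.0932), -0.60 ± 0.20 at 2 ppm (adjusted p = 0.687) and -0.57 ± 0.20 at 50 ppm (adjusted p = 0.23, limma). At 50 ppm the treated mice were at 11.14, 11.52, 11.22, 11.64 and 11.01 and the water mice at 11.86, 11.64, 11.88, 11.78 and 12.23. The groups do not overlap there, nor at 2 ppm for 1 week (mean 11.28 ± 0.37), though the closest mice are equal to 2 decimals. All treated arrays lay below water in 1.06% of all genes at 50 ppm and 0.923% at 2 ppm. A second Btg2 probe set of lower mean signal (1448272_at) did pass for the 12-week trend (-0.13 per step, adjusted p = 0.0368), so the 2 probe sets disagree there.

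Ier2 (1416442_at) fell at 50 ppm, and its mean did not step down from dose to dose. Water mice were at 11.41, 12.00, 11.67, 11.97 and 11.92 and the 50 ppm mice at 11.00, 11.28, 11.12, 10.87 and 11.36. No treated mouse reached the lowest water mouse, and the fall was 0.67 ± 0.15 (0.63 of water, adjusted p = 0.0229, limma). The changes at 0.5, 2 and 10 ppm were -0.57, -0.53 and -0.32, none of them called (adjusted p of 0.0645, 0.427 and 0.3). Without water the slope over doses was -0.01 ± 0.05 (adjusted p = 0.963). Its 1-week means lay between 11.10 ± 0.14 at 2 ppm and 11.37 ± 0.27 at 0.5 ppm, with water at 11.32 ± 0.08.

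Ier3 (1419647_a_at) did not change by the test at any dose. At 12 weeks its mean was 11.75 ± 0.25 in water and between 11.47 and 11.52 in the treated groups. At 1 week its means ran from 11.52 ± 0.20 in water to 11.07 ± 0.38 at 10 ppm and back to 11.52 ± 0.41 at 50 ppm. No adjusted p of Ier3 in a dose comparison was below 0.162.

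Klf2 (1448890_at) was called at the top 2 doses of 12 weeks. Its water mice were at 10.22, 11.18, 10.05, 10.41 and 10.66, the 10 ppm mice at 9.32, 9.80, 9.90, 9.37 and 9.32, and the 50 ppm mice at 9.09, 9.38, 9.89, 9.46 and 9.46. Every mouse of both treated groups lay below every water mouse. The fall was 0.96 ± 0.21 at 10 ppm (0.514 of water, adjusted p = 0.0416) and 1.05 ± 0.21 at 50 ppm (0.484 of water, adjusted p = 0.0159, limma). At 0.5 and 2 ppm the changes were -0.06 and -0.37 and were not called. The 12-week trend was -0.30 ± 0.05 per dose step (adjusted p = 0.00146) and -0.36 ± 0.06 without the water mice (adjusted p = 0.00573), the smallest adjusted p among the 8 genes in both. Its 1-week means were 10.43 ± 0.34 in water, 10.14 ± 0.38 at 0.5 ppm, 10.04 ± 0.25 at 2 ppm, 9.91 ± 0.29 at 10 ppm and 10.41 ± 0.43 at 50 ppm. When the 10 group means of a gene are put in order, a gap between neighbours larger than either SD occurred once for Klf2, above the 12-week 10 and 50 ppm groups, once for Klf4, above the 50 ppm groups of both harvests and the 12-week 10 ppm group, and not for the other 6 genes.

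Klf4 (1417394_at) and Klf6 (1433508_at), the other Kruppel-like genes of the set, were not called at any dose or time. Klf4 had a mean of 11.60 ± 0.25 in 12-week water, 11.16 ± 0.19 at 10 ppm and 11.23 ± 0.18 at 50 ppm, and its 2 ppm mice ranged from 10.89 to 12.52. At 1 week its means were between 11.50 and 11.65 up to 10 ppm. Its lowest adjusted p was at 50 ppm for 1 week, with a change of -0.45 ± 0.11 (adjusted p = 0.0627, limma). Those mice were at 11.42, 11.03, 10.92, 11.59 and 11.07 against water at 11.62, 11.65, 11.52, 11.72 and 11.76, and 1 treated mouse overlapped. Klf6 went the other way at low doses of 12 weeks, from 9.56 ± 0.30 in water to 9.95 ± 0.38 at 0.5 ppm and 10.01 ± 0.11 at 2 ppm (adjusted p of 0.163 and 0.447). It was at 9.54 ± 0.26 and 9.72 ± 0.14 at the top 2 doses, and between 9.50 and 9.83 at 1 week. The 5 Klf6 probe sets disagreed at 1 week and 50 ppm: 1427742_a_at was called lower (-0.80, adjusted p = 0.0201) while the chosen one was at -0.18 ± 0.13 (adjusted p = 0.625). A second Klf4 probe set, 1417395_at, was called at 10 ppm for 1 week (-0.56, adjusted p = 0.036), where the chosen one was at -0.16.

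**Figure D2:**
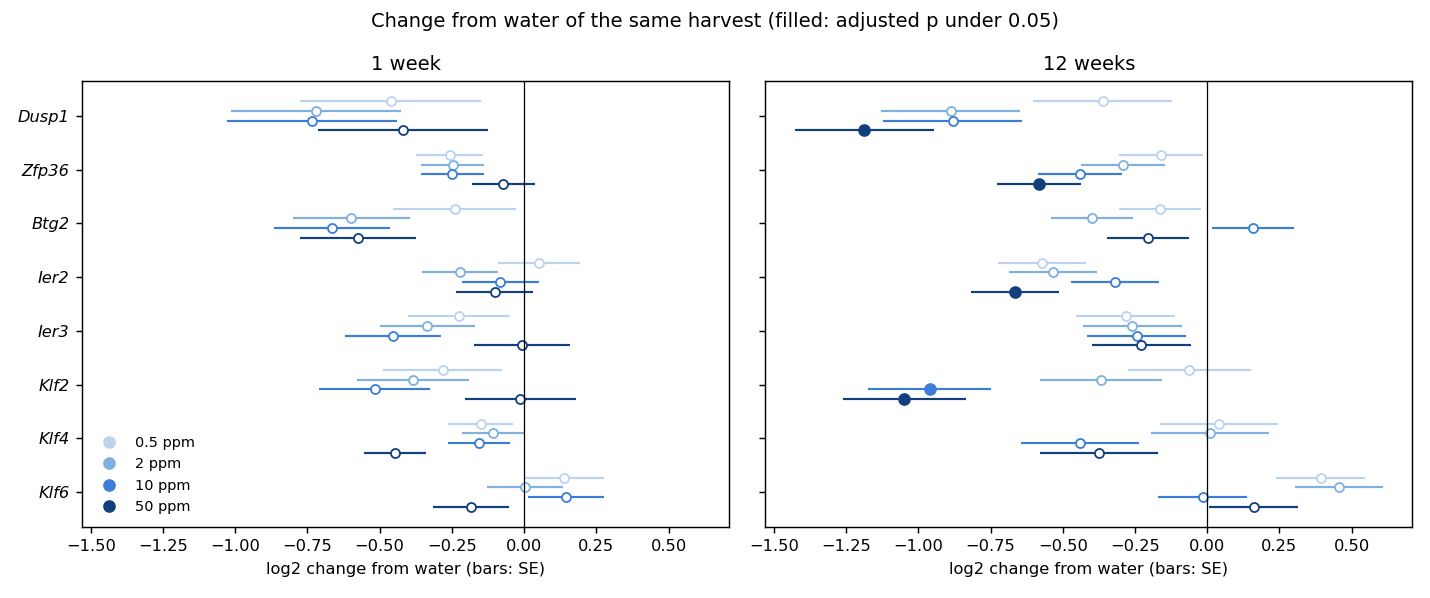
Log2 change from water of the same harvest (x axis, bars SE) of each gene (y axis) at 0.5, 2, 10 and 50 ppm (light to dark) for 1 week (left) and 12 weeks (right); filled points have an adjusted p under 0.05. The 5 filled points, Dusp1, Zfp36, Ier2 and Klf2 at 50 ppm and Klf2 at 10 ppm, are all at 12 weeks and below 0.

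Across doses at 12 weeks, 1 of the 8 genes was called at 10 ppm (Klf2), where 0.109% of all genes were called lower, and 0 at 2 ppm and at 0.5 ppm, where 0.0137% and 0.191% were. At an unadjusted p under 0.05, 4 of the 8 passed at 2 ppm and 2 at 0.5 ppm in limma, beside 9.91% and 19% of all genes, so the count at 0.5 ppm is near the background. The dose trend called 3 (Klf2, Dusp1, Zfp36), against 2.33% of all genes called falling, and the trend without water 2 (Klf2, Zfp36), against 1.51%. An F test over the 5 doses called Klf2 (adjusted p = 0.0051), Dusp1 (0.0179) and Ier2 (0.0369), against 4.94% of all genes. The 4 dose comparisons of a harvest share their water mice, so they are not independent of each other.

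At 1 week none of the 8 was called at any dose, where the share of all genes called lower was 0.0479% at 0.5 ppm, 0% at 2 ppm, 0.65% at 10 ppm and 0.246% at 50 ppm. The changes from water were mostly below 0 all the same, in 6, 7, 7 and 8 of the 8 genes at the 4 rising doses. The shares of all genes below 0 were 48.7%, 48.8%, 48.6% and 48.5%. These 4 comparisons share their water mice, so the counts are not independent of each other. In the 1-week trend without water, 4 of the 8 slopes were below 0 and 4 above, beside 48.2% of all genes below. Unadjusted p-values from limma were under 0.05 for 1, 3, 5 and 2 of the 8, beside 12.5%, 5.93%, 17.1% and 11.5% of all genes, so the count at 0.5 ppm is at the background. Dusp1 varied most between mice here, from 10.66 to 12.59 in 1-week water alone, and its changes of -0.46, -0.72, -0.73 and -0.42 were smaller than 3 standard errors. No 1-week dose trend was called, with adjusted p from 0.123 (Klf4) to 0.927 (Klf2), against 0.212% of all genes falling, and the F test called none, against 1.77% of all genes. Other Klf6 probe sets differed: 1427742_a_at was called in that trend (adjusted p = 0.00714, limma), and both it and 1418280_at in that F test.

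The 50 ppm effect differed between harvests for Klf2. At 1 week the 50 ppm mice were at 10.35, 10.88, 10.08, 10.82 and 9.93 and the water mice at 9.97, 10.57, 10.20, 10.85 and 10.54, a change of -0.01 ± 0.19. The 12-week effect minus the 1-week effect was -1.04 ± 0.30 (adjusted p = 0.029, limma), where 3.75% of all genes were called lower. For Zfp36 the difference was -0.51 ± 0.19 (adjusted p = 0.0761), for Ier2 -0.56 ± 0.21 (0.0833) and for Dusp1 -0.77 ± 0.40 (0.227), none of which passed. At 0.5, 2 and 10 ppm no member's difference passed, against 4.61%, 0% and 1.37% of all genes.

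The water groups themselves differed for Ier2, which was higher at 12 weeks than at 1 week by 0.48 ± 0.15 (adjusted p = 0.0255), in a contrast that called 6.26% of all genes higher. The 12-week water mice of Ier2 ranged from 11.41 to 12.00 and the 1-week ones from 11.20 to 11.41. Zfp36 was at +0.37 ± 0.13 (adjusted p = 0.0547) and Dusp1 at +0.55 ± 0.29 (adjusted p = 0.198, limma). Klf6 was called by its probe set 1427742_a_at (adjusted p = 0.0063, limma) and not by the chosen one (0.605). The 50 ppm mice of 12 weeks had a mean of 10.96 for Dusp1, within the range of the 1-week treated means (10.86 to 11.17), and of 11.13 for Ier2, likewise (11.10 to 11.37). For Klf2 the mean of those mice, 9.46, lay below all 1-week treated means (9.91 to 10.41). Age, harvest and time on study cannot be told apart in this contrast. Liver markers (8 genes such as Alb) moved with it, from a mean of 9.35 in 1-week water, range 8.14 to 10.22, to 7.37 at 12 weeks, range 7.07 to 7.86. Their part in it was not tested. At 12 weeks they were at 7.21 in the 50 ppm group. Within the 1-week harvest their mean was 8.78 at 0.5 ppm, 9.14 at 2 ppm, 8.29 at 10 ppm and 7.58 at 50 ppm. The part of liver transcripts in the 1-week comparisons and in the differences between harvests was not tested.

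The KLF family as a whole did not move one way. Of 13 other KLF genes that passed the filter (14 were listed), 3 rose at 50 ppm and 12 weeks and 0 fell, with a median change of +0.19, where 2.29% of all genes were called higher. Klf9 rose by 1.14 ± 0.19 (adjusted p = 0.00481), from a mean of 10.71 ± 0.36 (SD, n = 5) to 11.85 ± 0.21, and Klf15 by 1.37 ± 0.36 (adjusted p = 0.0346), from 7.97 ± 1.13 to 9.34 ± 0.38. Both are known as targets of the glucocorticoid receptor in other tissues. Klf11 rose by 0.48 ± 0.13 (adjusted p = 0.0406). At 10 ppm Klf9 rose as well (0.85 ± 0.19, adjusted p = 0.0441), and Klf15 was at +1.10 ± 0.36 (adjusted p = 0.139, limma). Klf9 also differed between harvests at 50 ppm, by +1.35 ± 0.28 (adjusted p = 0.00363), opposite in sign to Klf2.

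**Figure D3:**
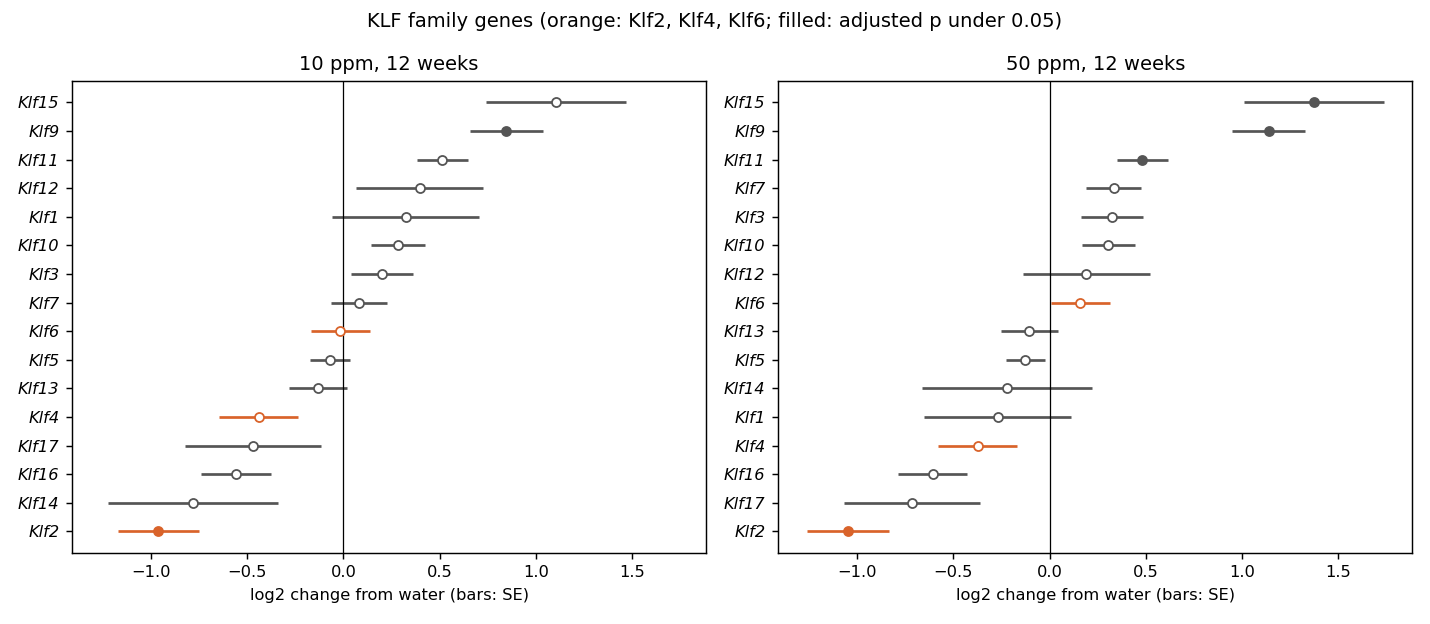
Log2 change from water (x axis, bars SE) of the 16 KLF genes that passed the filter (y axis, sorted) at 10 ppm (left) and 50 ppm (right) for 12 weeks; orange marks Klf2, Klf4 and Klf6, filled points have an adjusted p under 0.05. Klf2 is the lowest gene in both panels, and Klf9 and Klf15 are the 2 highest.

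Of 19 other early response transcription factors, 4 fell at 50 ppm and 12 weeks, with changes of -2.87 ± 0.34 for Egr1 (adjusted p = 7.8e-05), -1.88 ± 0.28 for Fos (0.00196), -1.89 ± 0.51 for Nr4a1 (0.0373) and -0.91 ± 0.26 for Csrnp1 (0.0451, limma). Their median change was -0.60, and 14 of the 19 were below 0, beside 54.5% of all genes. Among 20 other feedback genes 1 fell, Spry1, an inhibitor of receptor tyrosine kinase signalling (by 0.63 ± 0.15, adjusted p = 0.024), with a median of -0.14. The 12-week trend called 7 of the 19 transcription factors and 3 of the 20 feedback genes, all falling.

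The partners and targets of DUSP1 and ZFP36 gave 0 or 1 call per list at 50 ppm and 12 weeks. Over all genes 1.77% were called lower there and 2.29% higher, and the lists are too short to compare with these shares. Of 9 other MAP kinase phosphatases 0 were called at 50 ppm and 12 weeks, the smallest p being that of Dusp6 (-0.43 ± 0.13, adjusted p = 0.0502), and of 12 MAP kinases and activators 1 fell, Mapk13 (by 0.41 ± 0.11, adjusted p = 0.0338). Medians were -0.11 and -0.16. Of 6 other ZFP36, BTG and TOB family genes 0 were called, with Zfp36l1 at +0.29 ± 0.11 (adjusted p = 0.0959). Zfp36l1 rose over dose steps (0.09 ± 0.03 per step, adjusted p = 0.0367, limma), while Zfp36 itself fell. Of 10 CCR4-NOT subunits 1 fell, Cnot3 (by 0.56 ± 0.15, adjusted p = 0.0337), and their median was +0.22. Of 12 messages with AU-rich elements known to be bound by ZFP36, 6 passed the filter and 0 were called, with all 6 changes below 0 (54.5% of all genes). The 2 of smallest p were Lif (-0.51 ± 0.25, adjusted p = 0.218) and Il1b (-0.43 ± 0.25, adjusted p = 0.298).

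At 1 week and 10 ppm, where no member was called, 3 of the 20 other feedback genes fell. These were Gadd45g (by 0.98 ± 0.16, adjusted p = 0.00385), Errfi1 (by 0.48 ± 0.11, adjusted p = 0.0364) and Pim1 (by 0.51 ± 0.12, adjusted p = 0.0415, limma). None of the 19 transcription factors was called there.

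Mice within a group differed in step for most pairs of the 8 genes. With each gene centred on its group means, Pearson's r over the 49 arrays was above 0 for 25 of the 28 pairs, with a median of 0.48 and a range from -0.22 to 0.79. Zfp36 and Klf2 were the closest pair (r = 0.79), followed by Dusp1 and Klf2 (0.71). Klf6 stood apart, with r between -0.22 and 0.17 with the other genes except Klf4 (0.48). The arrays share their RNA sample, labelling and scaling with all genes on them, so these values describe arrays and carry no p.

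**Figure D4:**
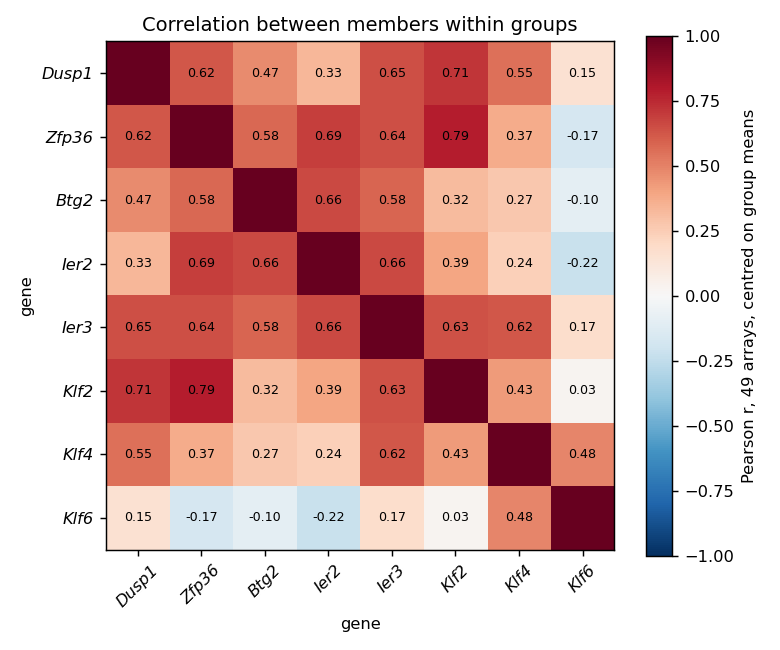
Pearson r between each pair of the 8 genes over 49 arrays, each gene centred on its group means (colour scale from -1 to 1, values printed in the cells). Zfp36 and Klf2 have the highest r, 0.79, and Klf6 is near or below 0.17 with every gene but Klf4.

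Outside the set, the genes whose signal followed the mean of the 8 most closely over 49 arrays, centred on harvest, were Ccn1 (r = 0.79), Csrnp1 (0.78), Fos (0.77), Amotl2 (0.76) and Hbegf (0.75). Centred on group means, the same r were 0.72, 0.71, 0.76, 0.66 and 0.68. Single genes had other neighbours: Dusp1 was closest to Fos (0.82) and Ccn1 (0.80), Zfp36 to Klf2 (0.86) and Egr1 (0.80), and Btg2 to Id1 (0.78) and Junb (0.77). Klf2 was closest to Zfp36 and Spry1 (0.82), Klf4 to Atf3 (0.74) and Fosb (0.71), and Klf6 to Cobll1 (0.77) and Pls3 (0.73). Ier2 was closest to Mettl26 (0.79) and Stard10 (0.78), and Ier3 to Sertad1 (0.75) and Tbc1d10a (0.72).

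The tissue matched its label: smooth muscle and superficial urothelium markers had median levels of 14.18 and 13.99, and lymphocyte markers of 5.97, with 6 of 9 passing the filter. RNA integrity numbers at 12 weeks were 9.3 to 9.8. At 1 week they ran from 7.2 to 9.7 at 2 ppm, with a mean of 8.16 beside 9.28 in water. At 10 ppm for 1 week only 3 of the 5 mice had a number, from 8.4 to 9.3. Exact two-sided permutation tests, whose smallest p at 5 against 5 mice is 0.00794, were run for 128 array measures and comparisons. Endothelial markers (10 genes, all kept) had a mean of 8.65 in 12-week water. It was 8.97 at 0.5 ppm (exact permutation p = 0.00794, adjusted 0.113), 8.83 at 2 ppm and 8.69 at 10 ppm. At 50 ppm and 12 weeks these markers were at 8.87 against 8.65 in water (exact permutation p = 0.0238, adjusted 0.16). Smooth muscle markers were at 13.93 against 13.59 (exact permutation p = 0.00794, adjusted 0.113) and lymphocyte markers at 6.22 against 6.38 (exact permutation p = 0.54, adjusted 0.751). The part of cell makeup in the falls was not tested.

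Levels of 2 kinds of control transcript moved with dose at 12 weeks. One was that of the poly-A controls, bacterial transcripts used to follow labelling. Its mean was 10.06 ± 0.32 in water, 9.70 ± 0.22 at 0.5 ppm, 9.59 ± 0.08 at 2 ppm, 9.11 ± 0.21 at 10 ppm and 9.30 ± 0.35 at 50 ppm (SD, n = 5). The difference from water was -0.95 at 10 ppm (exact permutation p = 0.00794, adjusted 0.113) and -0.77 at 50 ppm (exact permutation p = 0.0159, adjusted 0.127). Over the 25 arrays of 12 weeks its r with the mean of the 8 genes was 0.70, and 0.47 within groups, and over the 24 arrays of 1 week -0.10. With this level as a covariate none of the 8 genes was called at 50 ppm: Dusp1 was at -0.75 ± 0.34 (adjusted p = 0.451), Klf2 at -0.50 ± 0.28 (0.571), Ier2 at -0.15 ± 0.18 (0.84) and Zfp36 at -0.08 ± 0.16 (0.917, limma). The trends of Klf2 (-0.17 ± 0.07 per step, adjusted p = 0.428) and Dusp1 (-0.21 ± 0.08, adjusted p = 0.424) kept their sign under it and were not called. The other was the level of the hybridization controls, at a mean of 11.20 in water, 11.76 at 10 ppm (difference +0.56) and 11.72 at 50 ppm (+0.52), both with an exact permutation p of 0.00794, adjusted 0.113. With it as a covariate Dusp1 was no longer called at 50 ppm (-0.98 ± 0.29, adjusted p = 0.0555) or in the trend (-0.26 ± 0.07 per step, adjusted p = 0.0579), nor Klf2 at 10 ppm (-1.10 ± 0.27, adjusted p = 0.0657). Klf2 (-1.18 ± 0.26, adjusted p = 0.0281), Ier2 (-0.78 ± 0.19, 0.0319) and Zfp36 (-0.69 ± 0.18, 0.0372, limma) were still called at 50 ppm. The part of either control level in the falls was not tested beyond these fits. Both levels moved with dose, so the fits cannot fully separate them from it. The share of all genes called in these fits is not given here.

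**Figure D5:**
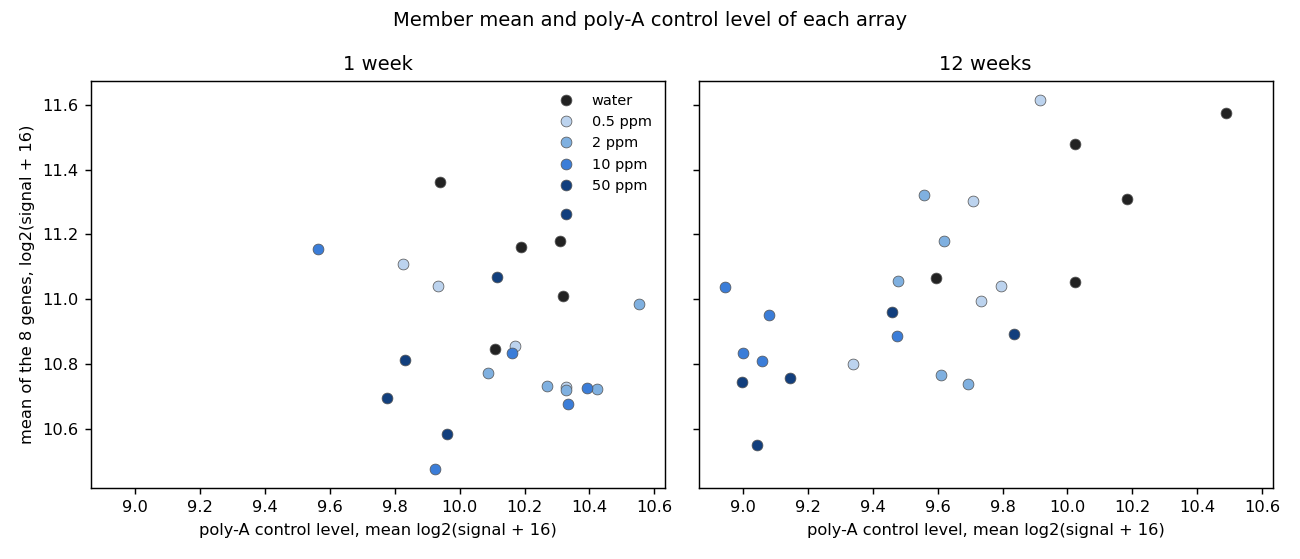
Mean log2(signal + 16) of the 8 genes (y axis) against the mean log2(signal + 16) of the poly-A controls (x axis), 1 point per array, coloured by dose, at 1 week (left) and 12 weeks (right). At 12 weeks (r = 0.70) the 10 and 50 ppm arrays lie to the lower left of the water arrays, and at 1 week (r = -0.10) no such slope is seen.

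Single mice decided some calls. Without water replicate 2 of 12 weeks, the highest of its group for Dusp1, Zfp36 and Klf2, none of the 8 was called at 50 ppm. Klf2 was then at -0.88 and Dusp1 at -1.02 (both adjusted p = 0.0566, limma). Without water replicate 5 or 50 ppm replicate 4 the count was 2. Each of the other single mice left out gave 3 or 4. The call of Klf2 at 10 ppm was lost in 7 of 10 such fits and that of Zfp36 at 50 ppm in 6 of 10. That of Klf2 between harvests was lost in 6 of 20 and that of Ier2 between the water groups in 4 of 10. Ier2 also lost its call at 50 ppm in 3 of 10 and in the 12-week F test in 10 of 25. The call of Zfp36 in the trend without water was lost in 17 of 20. For Klf2 at 10 ppm these were water replicates 2, 4 and 5 and treated replicates 1, 2, 4 and 5, and for Zfp36 at 50 ppm water replicates 2, 3 and 5 and treated replicates 1, 2 and 4. For Klf2 between harvests they were water replicate 2 and 50 ppm replicate 1 of 12 weeks, and water replicates 1 and 3 and 50 ppm replicates 2 and 4 of 1 week. For Ier2 between the water groups they were replicates 2, 4 and 5 of 12 weeks and replicate 4 of 1 week. Calls were also gained: at 1 week 2 of the 8 were called at 10 ppm without its replicate 1, and 1 at 50 ppm without its replicate 1 or 4. The share of all genes called in the fits without 1 mouse is not given here, so these counts describe the members only. The 12-week trends of Klf2, Dusp1 and Zfp36 were called in all 25 fits that left out 1 mouse.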

How the data were processed

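The authors deposited an intensity on a linear scale for each probe set of each array, made with GCOS 1.0 according to the submitters' processing notes. How that software was set is not stated. The 2% trimmed mean was 500.003 to 500.004 on every array, so the authors' values had been scaled before deposit. The table held 45101 probe sets, 64 of them controls. Platform annotation, with symbols updated by Entrez ID, gave 34945 a single gene.

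Signals were taken as log2(value + 16). Genes above the 40th percentile of an array in at least 4 arrays were tested (14624), each by its probe set of highest mean. The filter counts arrays over all groups. Each harvest was fitted alone with limma 3.58.1 (lmFit, eBayes with a trend) in R 4.3.3, and contrasts between harvests used all 49 arrays. P-values were adjusted by Benjamini-Hochberg over all genes tested, separately for each of 19 comparisons. Trends are slopes over dose ranks. Array measures were compared by exact permutation tests. The fits were tested on simulated data. For arrays, the number per group limits the precision.

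The members and lists were chosen with earlier results of these data known. Named genes are the 8 members, of each list up to 4 called genes of smallest p or else up to 2 of smallest p, Klf9 and Klf15, the 5 genes most like the members' mean and 2 for each member. Alternatives were offsets, normalization, filters, array weights, covariates, a replicate block, 1 fit of all arrays, other probe sets and leaving out single mice. Motifs were searched in RefSeq promoter windows (GRCm38.p6), and plots drawn with matplotlib.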

Additional observations from a re-analysis of the deposited data

Results flagged for a closer look

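Klf2 in replicate 2 of the 2 ppm group at 1 week was at 9.62 (log2 signal) while the other 4 mice of that group lay between 10.09 and 10.27, a gap of 0.729 of the group's range, above the limit of 0.71 for 5 samples. It was the 1 such value in 80 pairs of gene and group, and chance alone gives about 1 in 20. Klf2 also had a 50 ppm effect that differed between harvests, by -1.04 (12 weeks minus 1 week), in a test of the difference itself.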

How the results depend on the processing

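Beyond leaving out single mice, counts of members called moved as follows. At 10 ppm and 12 weeks the 1 call became 0 with no filter and with RNA integrity number, poly-A level or hybridization level as a covariate. With the poly-A level as a covariate the 4 calls at 50 ppm and 12 weeks, the 3 of the 12-week trend, the 2 of that trend without water and the 1 of the 50 ppm difference between harvests all became 0, while the water contrast went from 1 to 2. The trend without water also went from 2 to 1 under quantile normalization, no filter, the integrity number, the hybridization level and the replicate block. With array weights the counts were 3 at 10 ppm and 1 at 50 ppm for 1 week, 1 for the 1-week trend, 2 and 5 for the F tests at 1 and 12 weeks, 1 for each of the 0.5 and 10 ppm differences between harvests and 2 for the water contrast. The integrity number gave 1 call at 10 ppm for 1 week. That fit kept only the 3 mice of the group that had a number. The covariate and the loss of mice cannot be told apart in it. Fitting all arrays together gave 1 call at 0.5 ppm for 12 weeks. A filter at the 60th percentile gave 2 in the water contrast. Smaller moves were these. With the hybridization level, Dusp1 lost its call at 50 ppm (4 to 3 members), in the 12-week trend (3 to 2) and in the 12-week F test (3 to 2), and with the integrity number Ier2 lost its call in that F test (3 to 2). In the F test with the poly-A level, Dusp1 and Klf2 lost their calls and Btg2 and Klf6 gained one. Array weights added Ier2 to the 12-week trend and Dusp1 to that without water, and the 60th percentile filter added Zfp36 to the 12-week F test. Why these counts moved was not tested. The share of all genes called in these fits is not given here. A change in calls over all genes thus cannot be told apart from one in the members.

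Leaving out each mouse in turn gave these ranges of members called: at 12 weeks 0 to 1 at 0.5 ppm, 0 to 0 at 2 ppm, 0 to 2 at 10 ppm and 0 to 4 at 50 ppm; at 1 week 0 to 0 at 0.5 and 2 ppm, 0 to 2 at 10 ppm and 0 to 1 at 50 ppm. Trends gave 3 to 4 at 12 weeks and 1 to 3 without water, and 0 to 0 for both at 1 week. F tests gave 2 to 5 at 12 weeks and 0 to 1 at 1 week. Differences between harvests gave 0 to 1 at 0.5 ppm, 0 to 0 at 2 ppm, 0 to 1 at 10 ppm and 0 to 3 at 50 ppm, and the water contrast 0 to 2. For these fits, too, the share of all genes called is not given.

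Of 4234 single values under an alternative, 155 uncalled ones changed sign and 1 uncalled value turned into a call of the other sign: Btg2 in the water contrast by its second probe set, at +0.79 against -0.04. Replicate numbers are not stated to pair mice. Same-numbered mice had correlations of deviations from -0.087 to 0.389, in no comparison all above 0.1. Their mean ran from -0.031 (10 ppm, 1 week) to 0.142 (0.5 ppm, 12 weeks, against -0.037 for other pairs). These values do not settle whether mice were paired. The replicate block changed no other count. Counts at an unadjusted p are no calls, and the number of mice limits what could be called.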
